A study of Homo sapiens with 23 samples.

Results

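The 53 genes described here encode the machinery that copies DNA and the enzymes that supply its nucleotides. They were listed by name from textbook roles, with earlier results of these data known, and all 53 were found in both tables of counts, of 61806 genes in the first table and 42901 in the deep one. They fall into 6 groups by role. The groups are licensing (15 genes), origin firing and the helicase (8), polymerases and primase (10), the clamp, its loader, RPA and Okazaki fragment enzymes (12), fork protection (4) and nucleotide supply (4). RNA-sequencing of A549 cells, an established human lung carcinoma line, gave 23 libraries. *THUMPD3*, which encodes a tRNA methyltransferase, was depleted with the siRNA siD3 #3 or with the doxycycline-inducible lentiviral shRNAs shD3 #1 and shD3 #4. The matching controls siControl, sh1Control and sh4Control were labelled WT. The methods call controls untreated and knockdowns treated, and do not state whether the shRNA controls received doxycycline. If they did not, doxycycline and depletion cannot be told apart in the shRNA comparisons. There were 3 libraries per group, except for siControl, with 2. A further 3 libraries of sh1Control and 3 of shD3 #1 were sequenced more deeply. All cells grew in DMEM with serum, the shRNA cells carried an integrated lentiviral vector, and siRNA and shRNA cells were harvested on different days. Delivery and harvest time therefore cannot be told apart in any contrast of siD3 #3 with the shRNAs. The depth of *THUMPD3* depletion, given below, and the sequence of the single siRNA cannot be told apart from them either. Whether the deep libraries came from the same RNA as the first ones is not given in the sources used here.

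In G1 phase the origin recognition complex (ORC), CDC6 and CDT1, whose inhibitor is geminin (*GMNN*), load the helicase subunits MCM2 to MCM7 onto origins. The kinase CDC7 with its partner DBF4, together with MCM10, CDC45 and the GINS complex, then turns loaded MCM into a moving helicase. Polymerase alpha with primase starts each strand, polymerases epsilon and delta extend it on the PCNA clamp, and FEN1 and LIG1 join Okazaki fragments. Ribonucleotide reductase (RRM1 and RRM2), thymidylate synthase (TYMS) and thymidine kinase (TK1) supply deoxynucleotides. Many of these genes are transcribed at the G1/S boundary by E2F factors, so their mRNA in a culture also follows the share of cycling cells. In bulk RNA, fewer cells in S phase and less mRNA per cell cannot be told apart.

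Because E2F factors are the best known regulators of these genes, their promoters were searched for the 8-base words TTTCCCGC, TTTCGCGC, TTTGCCGC and TTTGGCGC on both strands. RefSeq promoters (GRCh38.p14, 250 bases before and 50 after the start) were matched for 47 of the 53 genes. An E2F word was found in 19 of these 47 (40.4%), against 701 of 15344 promoters of protein-coding genes, 1 per gene (4.57%). The words occurred in 7 of 13 licensing promoters, 3 of 7 for firing, 4 of 9 for polymerases, 2 of 10 for the clamp group, 2 of 4 for fork protection and 1 of 4 for nucleotide supply. CCAAT was present in 26 of 47 (55.3%, against 36.6% of all promoters). Of 36 promoters of the other replication and nucleotide genes described below, 7 (19.4%) held an E2F word and 19 (52.8%) CCAAT. The CHR words TTTGAA and TTCGAA, a cell cycle element, were present in 3 of 47 (6.38%, against 13.0%). Overlaps between E2F, CCAAT and CHR words were not counted. A match describes letters in the window and is not a measured binding site. The sequences below hold an E2F word (in capitals) and show, for each role group, the gene with such a word that had the lowest mean log2 fold change over the first 3 knockdowns. Where the word lies past the start, only 30 bases around it are given. *MCM6* was added after its 4 words were seen. All run 5′ to 3′ on the strand of the gene.
CDC6, chr17:40287875-40287904, plus strand: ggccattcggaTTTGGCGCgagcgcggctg
GINS2, chr16:85688955-85689025, minus strand: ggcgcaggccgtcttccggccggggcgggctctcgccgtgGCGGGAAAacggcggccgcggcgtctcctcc
POLE2, chr14:49688201-49688230, minus strand: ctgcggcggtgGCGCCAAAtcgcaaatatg
RFC3, chr13:33818054-33818148, plus strand: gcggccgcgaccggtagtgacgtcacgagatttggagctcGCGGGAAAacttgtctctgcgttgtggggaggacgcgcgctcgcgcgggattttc
CLSPN, chr1:35769965-35769994, minus strand: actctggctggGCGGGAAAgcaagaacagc
TYMS, chr18:657574-657652, plus strand: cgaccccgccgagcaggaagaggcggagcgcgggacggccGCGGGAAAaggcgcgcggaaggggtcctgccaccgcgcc
MCM6, chr2:135876444-135876635, minus strand: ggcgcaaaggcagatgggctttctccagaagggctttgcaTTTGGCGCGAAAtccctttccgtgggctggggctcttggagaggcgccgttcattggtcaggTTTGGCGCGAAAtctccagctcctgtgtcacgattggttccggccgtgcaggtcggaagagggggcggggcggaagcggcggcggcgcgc

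Of the 26 words in the 19 promoters, 14 began between 50 bases before and 19 bases after the start, and 5 promoters held more than 1. In *MCM6*, *MCM2* and *TIPIN* a word on 1 strand overlapped a word on the other. The median log2 fold change of genes with and without a word was -0.63 and -0.60 in shD3 #1 (19 and 27 genes), -0.46 and -0.43 in shD3 #4, -2.30 and -1.87 in siD3 #3 and -0.33 and -0.43 in the deep libraries (19 and 28 genes). Genes of both kinds were therefore lower, with differences between the medians of both signs.

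**Figure D1:**
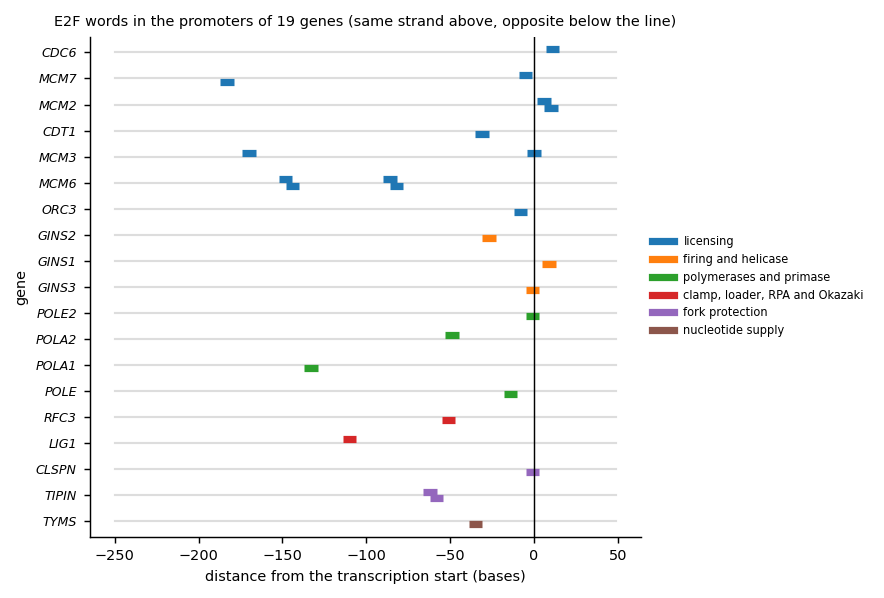
Distance (bases) of each E2F word from the transcription start (vertical line) in the promoters of the 19 genes that held one, from 250 bases before to 49 after the start. Bars are words of 8 bases on the strand of the gene (above each line) or on the other strand (below), coloured by role group. Words begin between -187 and 7, and 14 of 26 begin within the 50 bases before or the 19 after the start.

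*THUMPD3* itself was lower in all knockdown libraries. In cpm (edgeR's read counts scaled to a common library size with TMM factors, used for all levels below), sh1Control had 61.8, 59.6 and 62.5 and shD3 #1 had 30.9, 30.5 and 32.9. The level was 66.0, 65.0 and 58.6 in sh4Control against 20.2, 20.1 and 19.2 in shD3 #4, and 65.7 and 68.5 in siControl against 11.6, 12.4 and 10.5 in siD3 #3. It was 54.0, 53.02 and 55.9 in the deep controls against 24.9, 27.5 and 28.3 in deep shD3 #1. The groups did not overlap in any comparison, and the log2 fold changes were -0.97, -1.67, -2.54 and -1.01 in this order. Exact two-sided permutation tests each gave p = 0.1, the smallest value these group sizes allow. Depth was 9854294 to 22101059 counts in the first libraries and 27285889 to 59974740 in the deep ones. shD3 #1 replicate 3 was the shallowest. Of the epithelial and A549 markers, *KRT8*, *KRT18*, *ALDH1A1*, *AKR1B10*, *AKR1C1* and *NQO1* had their lowest level in any library between 136 (*AKR1C1*) and 3447 cpm (*ALDH1A1*). *EPCAM* ranged from 1.94 to 21.02 cpm, *KRT19* from 19.7 to 139 and *CDH1* from 39.7 to 225. The log2 fold changes of these 3 differed between the shRNAs (by 1.44, 1.68 and -1.69, shD3 #1 minus shD3 #4, in the edgeR model described below), and their part in the results was not tested. *PTPRC*, *CD3E*, *PECAM1*, *VWF*, *PDGFRB* and *DCN* had at most 10 counts (*COL1A1*, a collagen gene, had 44 to 1004), and the surfactant genes *SFTPB* and *SFTPC*, which mark alveolar type 2 cells, at most 6.

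Most replication genes were lower in every knockdown. The fall was small to moderate with the shRNAs and deep with the siRNA, where levels of *MCM10*, *GINS2*, *CDC45*, *CLSPN* and *TK1* were under 10% of control. A gene was called lower or higher at an adjusted p under 0.05 (edgeR's quasi-likelihood test, Benjamini-Hochberg over all genes) and a change of at least 1.5-fold in either direction. In siD3 #3, 49 of the 52 genes tested were called lower, where 9.42% of all genes were. In shD3 #1, 28 of 52 were called lower (14.6% of all genes), in shD3 #4 11 of 52 (4.49%) and in deep shD3 #1 11 of 53 (14.1%). None was called higher in any comparison, where 14.5%, 8.0%, 12.5% and 15% of all genes were called higher in shD3 #1, shD3 #4, siD3 #3 and deep shD3 #1.

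Medians over the replication genes were -0.60 on the log2 scale with shD3 #1, -0.45 with shD3 #4, -2.03 with siD3 #3 and -0.37 in the deep libraries. Over all genes tested the median lay between -0.02 and 0.03. The level of the median gene was 66.1%, 73.4%, 24.6% and 77.3% of its control in the same order. Without the fold threshold, 47, 47, 51 and 41 genes were lower at an adjusted p under 0.05 from edgeR, where 27.8%, 20.8%, 16.4% and 31.5% of all genes were. Every knockdown library lay below every control for 46 genes in shD3 #1 (31.2% of all genes did so), 49 in shD3 #4 (24.7%), 51 in siD3 #3 (29.5%) and 40 in deep shD3 #1 (34.0%). The same 38 of 52 genes did so in all 4 comparisons, against 7.50% of the 13535 genes tested in each of them. Of the remaining genes, *RFC1* in shD3 #1 and *RFC1*, *CDT1*, *MCM6* and *GINS3* in deep shD3 #1 had every knockdown library above every control. The share of all genes with that upward separation was not counted, so these genes cannot be set against it.

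The fall was seen in each library. Over the genes tested, the median log2 ratio to the mean of the own controls was -0.68, -0.64 and -0.51 in the shD3 #1 libraries and -0.48, -0.42 and -0.45 in those of shD3 #4. It was -2.13, -2.11 and -1.74 in siD3 #3 and -0.42, -0.36 and -0.30 in deep shD3 #1, while the control libraries lay between -0.07 and 0.06. Replicate 3 of siD3 #3 was the least reduced of its group, and without it 50 genes were called lower. Replicate 3 of shD3 #1 was also the least reduced, and without it 28 were called. With total counts in place of TMM, the count in shD3 #4 rose to 18 and that in shD3 #1 fell to 21, while the medians over all genes moved from 0.01 to -0.06 and from -0.01 to 0.06.

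**Figure D2:**
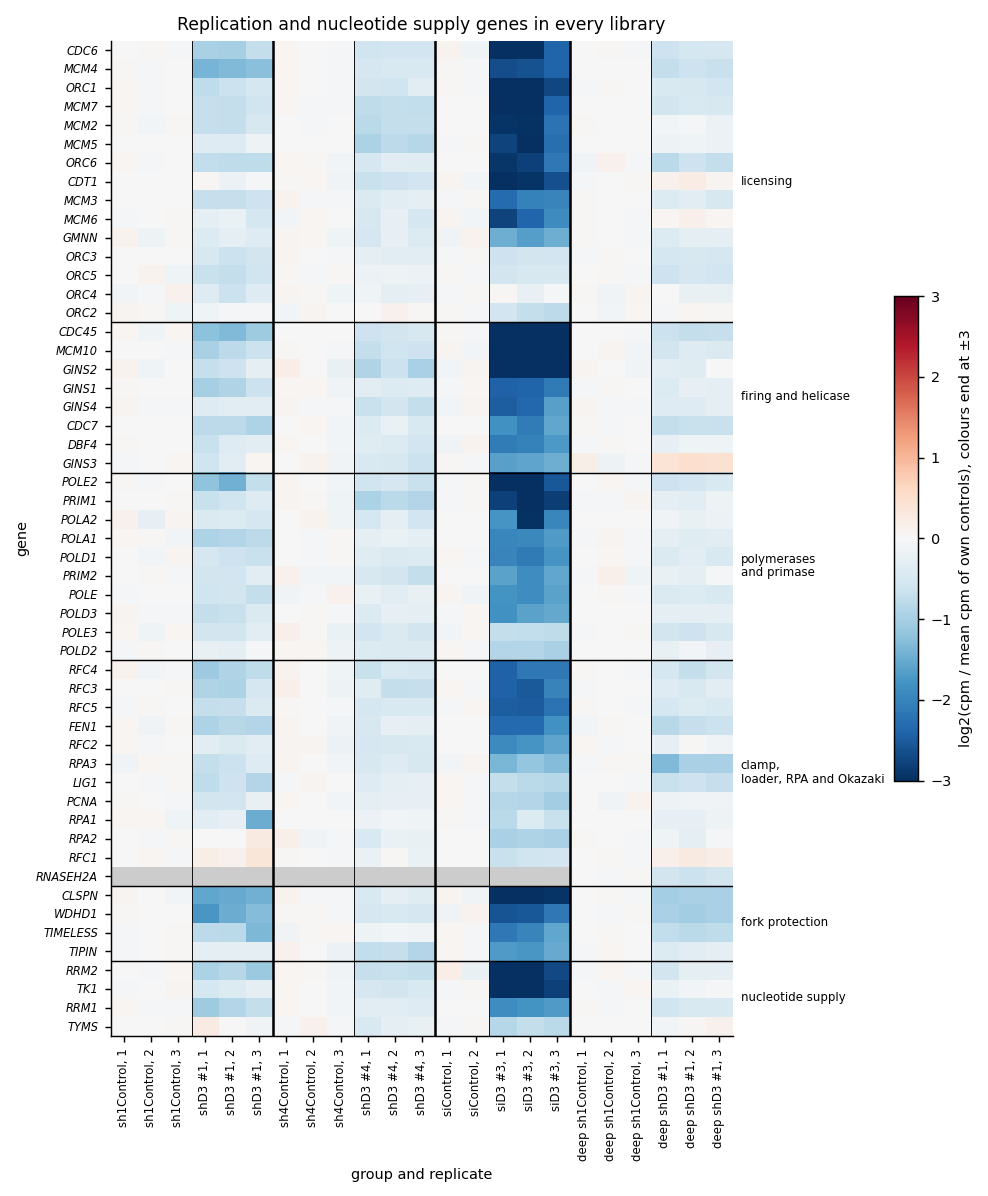
Level of 53 genes (rows, by role group) in 23 libraries (columns, by group and replicate), as log2 of cpm over the mean cpm of the library's own controls. Blue is lower and red is higher, colours end at 3 in either direction, and grey marks *RNASEH2A*, not tested in the first libraries. The columns of siD3 #3 are the darkest, and those of shD3 #4 and deep shD3 #1 are pale.

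The shRNAs shared 5 called genes, *MCM2*, *MCM7*, *MCM10*, *POLE2* and *RRM2*, which were 17.9% of the genes called in shD3 #1 and 45.5% of those in shD3 #4. Neither share exceeds that of the whole set, of which 11 of 52 genes were called in shD3 #4 and 28 of 52 in shD3 #1. All 11 genes called in shD3 #4 and 27 of the 28 called in shD3 #1 were also called in siD3 #3, with *ORC5* as the exception. With 49 of 52 genes called in siD3 #3, nearly any list of these genes would be found there. All 11 called in deep shD3 #1 were among the 28 of the first shD3 #1 libraries, and none of them was called in shD3 #4. Several of these calls lay near the fold threshold. In shD3 #4 *POLE2* (-0.59) and *CDT1* (-0.63) lay just inside and *RFC3* (-0.58) and *PRIM2* (-0.58) just outside. In deep shD3 #1 *RFC4* (-0.59) and *LIG1* (-0.66) lay just inside and *RNASEH2A* (-0.57) and *ORC5* (-0.57) just outside.

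**Figure D3:**
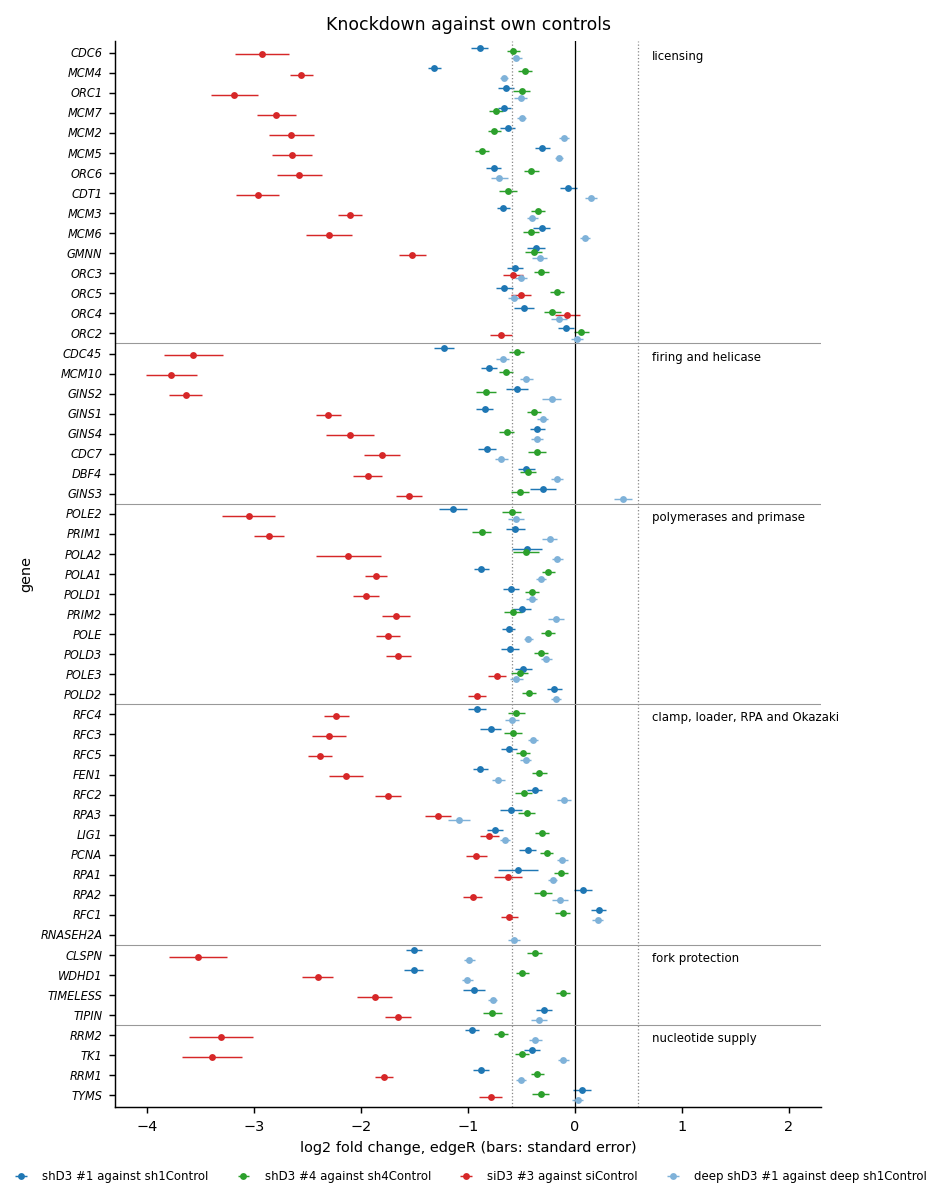
Log2 fold change of each gene (edgeR, bars are standard errors) in shD3 #1, shD3 #4, siD3 #3 and deep shD3 #1 against own controls, by role group. Dotted lines mark a 1.5-fold change in either direction. The siD3 #3 points reach -3.77 (*MCM10*), while the lowest points of shD3 #1, shD3 #4 and the deep libraries are -1.51 (*WDHD1*), -0.87 (*PRIM1*) and -1.08 (*RPA3*).

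Licensing genes had medians of -0.63 with shD3 #1, -0.41 with shD3 #4, -2.56 with siD3 #3 and -0.40 in the deep libraries (log2 fold change). Lower calls were made for 8, 4, 12 and 2 of the 15, where 14.6%, 4.49%, 9.42% and 14.1% of all genes were called lower. The 2 of 15 in the deep libraries are no more than the share of all genes. *CDC6*, the ATPase that recruits CDT1 with MCM to origins, lies on chromosome 17 of GRCh38 from 40287879 to 40304657 (ENSG00000094804). It had 92.1, 92.6 and 87.7 cpm in sh1Control and 46.5, 45.7 and 55.4 in shD3 #1. It had 98.8, 93.6 and 89.996 cpm in sh4Control and 62.4, 63.5 and 63.7 in shD3 #4. In siControl it had 106 and 89.8 cpm, and in siD3 #3 10.0, 9.94 and 18.6. The groups did not overlap in any of these, and the log2 fold changes were -0.89 ± 0.08 (SE), -0.58 ± 0.06 and -2.93 ± 0.25 (edgeR, adjusted p = 6.77e-08, 6.16e-08 and 1.43e-04). In shD3 #4 it missed the fold threshold. It was called there with DESeq2 (-0.593), total counts (-0.644), no filter beyond 1 count (-0.588) or without sh4Control replicate 3 (-0.613). In deep shD3 #1 *CDC6* was not called (-0.55).

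*MCM4* (ENSG00000104738), a subunit of the MCM helicase, showed the largest gap between the shRNAs in this group. Its level was 307, 292 and 302 cpm in sh1Control and 115, 120.4 and 127 in shD3 #1, a log2 fold change of -1.32 ± 0.06 (edgeR, adjusted p = 6.46e-11). In sh4Control it was 322, 303 and 299 cpm and in shD3 #4 219, 225 and 224, where 72.3% was left (-0.47 ± 0.06). In siD3 #3 it fell from 339 and 321 to 52.1, 53.6 and 62.6 cpm (-2.56 ± 0.11). The deep libraries lay between, with 276, 274 and 281 against 169.7, 179.7 and 175 cpm (-0.66 ± 0.04).

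The remaining MCM subunits, named here after their values were seen, did not move in step. In shD3 #1 *MCM2*, *MCM3* and *MCM7* were called lower (-0.63, -0.67 and -0.66), whereas *MCM5* and *MCM6* had log2 fold changes of -0.31 and -0.31. In shD3 #4 the order was different, with *MCM5* lowest (-0.87), then *MCM2* (-0.75) and *MCM7* (-0.74), and *MCM6*, *MCM4* and *MCM3* under the threshold (-0.41, -0.47 and -0.35). In siD3 #3 all 6 were called, between -2.79 (*MCM7*) and -2.10 (*MCM3*). In deep shD3 #1 *MCM4* alone was called, and the others ranged from -0.50 (*MCM7*) to 0.09 (*MCM6*). In cpm per kilobase of the canonical transcript, the MCM subunits were also unequal in the controls. sh1Control had 112 for *MCM7*, 73.9 for *MCM4* and 13.8 for *MCM6*.

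The loading factor *CDT1* differed between the shRNAs. For its inhibitor *GMNN* no difference was called (0.02 ± 0.13 on the log2 scale, edgeR, adjusted p = 0.928). *CDT1* (ENSG00000167513, chromosome 16 from 88803789 to 88809258) had 20.3, 20.6 and 20.1 cpm in sh1Control and 20.7, 18.04 and 19.96 in shD3 #1, groups that overlapped (-0.06 ± 0.08, edgeR, adjusted p = 0.547). It fell in shD3 #4, from 21.7, 21.8 and 19.5 to 13.1, 13.8 and 13.998 cpm (-0.63 ± 0.08), and in siD3 #3, from 23.6 and 21.3 to 2.12, 2.91 and 3.59 cpm (-2.97 ± 0.20). In the deep libraries it was 40.3, 42.4 and 43.2 cpm in controls and 46.2, 49.04 and 44.3 in shD3 #1 (0.15 ± 0.05, under the fold threshold). *GMNN* had log2 fold changes of -0.36, -0.39, -1.52 and -0.33, and was called in siD3 #3 alone.

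Among the ORC subunits the changes with the siRNA were unequal. In siD3 #3 *ORC1* and *ORC6* had log2 fold changes of -3.18 and -2.58, and *ORC2* one of -0.69. *ORC3*, *ORC4* and *ORC5* were the 3 of the 52 genes of the set tested that were not called there (-0.58, -0.07 and -0.51). Of these, *ORC3* and *ORC5* were lower at an adjusted p of 0.0028 and 0.0052 (edgeR) and missed only the fold threshold. *ORC2*, the licensing gene with the smallest mean fall, had 44.8, 43.5 and 38.3 cpm in sh1Control and 38.8, 40.4 and 40.2 in shD3 #1, and 39.1, 43.5 and 41.7 in sh4Control and 41.8, 45.2 and 42.6 in shD3 #4. These groups overlapped. With siD3 #3 the level was 28.9, 26.4 and 24.9 cpm, below both controls (44.01 and 42.5).

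Genes of origin firing and the helicase had median log2 fold changes of -0.67, -0.53, -2.20 and -0.33 (shD3 #1, shD3 #4, siD3 #3, deep shD3 #1). Called lower were 4, 3, 8 and 2 of 8, where 14.6%, 4.49%, 9.42% and 14.1% of all genes were. *CDC45*, a subunit of the active helicase (ENSG00000093009, chromosome 22 from 19479457 to 19520612), had 30.6, 26.8 and 30.3 cpm in sh1Control and 12.4, 11.7 and 13.9 in shD3 #1. It had 28.6, 28.9 and 29.2 in sh4Control and 18.9, 19.8 and 20.8 in shD3 #4. siD3 #3 gave 1.60, 2.68 and 3.98 cpm against 33.5 and 31.7 in siControl, so that 8.45% was left. The log2 fold changes were -1.23 ± 0.09, -0.55 ± 0.07 and -3.57 ± 0.28 (edgeR, adjusted p = 1.38e-08, 1.55e-06 and 8.53e-05), the second under the fold threshold. In the deep libraries 24.0, 24.1 and 23.4 cpm stood against 15.3, 14.6 and 14.9 (-0.68 ± 0.06).

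*MCM10*, which acts when the helicase is switched on (ENSG00000065328, chromosome 10 from 13161558 to 13211110), had the lowest log2 fold change of all 53 genes in siD3 #3. Its level there was 4.91, 4.80 and 8.91 cpm against 89.3 and 80.8 in siControl, and 7.30% was left (-3.77 ± 0.24, edgeR, adjusted p = 3.47e-05). It was also called in both shRNAs, from 77.5, 77.01 and 75.3 to 39.2, 44.1 and 48.9 cpm in shD3 #1 (-0.80 ± 0.08) and from 82.3, 81.0 and 79.5 to 49.5, 53.5 and 52.4 cpm in shD3 #4 (-0.64 ± 0.06). In deep shD3 #1 it missed the fold threshold (-0.45 ± 0.06).

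The GINS subunits differed among themselves. In siD3 #3 *GINS2* reached -3.64 and *GINS3* -1.55. *GINS3*, the firing gene with the smallest mean fall, had 17.9, 18.5 and 19.3 cpm in sh1Control and 12.3, 14.6 and 19.4 in shD3 #1, which overlapped (-0.30 ± 0.12). In the deep libraries it had 11.1, 8.93 and 9.64 cpm in controls and 13.1, 13.9 and 13.5 in shD3 #1, higher at an adjusted p of 4.33e-04 from edgeR but under the fold threshold (0.45 ± 0.09). Its exons overlap an unnamed gene on the other strand over 10.9% of their length, and the strand setting of the counting is not given in the sources used here.

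The kinase *CDC7* and its activator *DBF4* fell unequally with shD3 #1. *CDC7* went from 24.6, 24.8 and 24.1 to 14.1, 14.3 and 12.8 cpm (-0.82 ± 0.08), and from 23.0, 22.2 and 22.6 to 13.7, 14.2 and 14.2 cpm in the deep libraries (-0.69 ± 0.06). *DBF4* went from 46.0, 44.2 and 44.1 to 28.4, 34.3 and 35.6 cpm (-0.45 ± 0.08) and was not called. *DBF4* was not called in the deep libraries either (-0.17). In shD3 #4 neither was called (-0.36 and -0.44 for *CDC7* and *DBF4*), and in siD3 #3 both were (-1.80 and -1.94).

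Polymerase and primase genes had median log2 fold changes of -0.58, -0.44, -1.80 and -0.29, and 5, 2, 10 and 0 of 10 were called lower. The shares of all genes called lower were 14.6%, 4.49%, 9.42% and 14.1%, so the 0 of 10 in the deep libraries is under its share. *POLE2*, the second subunit of the leading-strand polymerase epsilon (ENSG00000100479, chromosome 14 from 49643555 to 49688422), was lowest on average. It had 20.3, 19.1 and 19.7 cpm in sh1Control and 8.57, 7.29 and 11.9 in shD3 #1 (-1.14 ± 0.13, edgeR, adjusted p = 1.65e-06). It had 20.1, 18.8 and 17.99 cpm in sh4Control and 12.5, 13.3 and 11.9 in shD3 #4 (-0.59 ± 0.09), a call lost without sh4Control replicate 1 or shD3 #4 replicate 3 (-0.56 each). In siD3 #3 it had 1.75, 2.06 and 3.44 cpm against 19.5 and 20.6 (-3.05 ± 0.25). In deep shD3 #1 *POLE2* was not called (-0.55).

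*PRIM1*, the catalytic primase subunit (ENSG00000198056, chromosome 12 from 56730438 to 56752374), was the lowest of the 52 genes of the set tested in shD3 #4. There it went from 23.3, 22.7 and 20.4 to 11.5, 12.7 and 12.1 cpm (-0.87 ± 0.09, edgeR, adjusted p = 9.26e-09). In shD3 #1 it went from 21.9, 21.7 and 22.6 to 13.8, 14.7 and 17.004 cpm and missed the fold threshold (-0.56 ± 0.09). The siD3 #3 libraries had 3.16, 2.798 and 3.14 cpm against 21.6 and 22.6 (-2.86 ± 0.14). With deep shD3 #1 *PRIM1* was not called (-0.24). Of its exonic bases, 19.1% overlap exons of other genes, 15.1% on the same strand (*NACA* and an unnamed gene). *POLD2*, a small subunit of polymerase delta, fell least on average, with -0.19, -0.43, -0.91 and -0.18. It was called in siD3 #3 alone.

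Genes of the clamp, its loader, RPA and Okazaki fragment processing had median log2 fold changes of -0.60, -0.33, -1.28 and -0.43. Called lower were 6 of 11, 0 of 11, 11 of 11 and 4 of 12, where 14.6%, 4.49%, 9.42% and 14.1% of all genes were. The 0 of 11 in shD3 #4 is no more than the share of all genes. *RFC4* and *RFC3*, small subunits of the clamp loader RFC, led the group. *RFC4* (ENSG00000163918, chromosome 3 from 186789880 to 186807058) had 42.3, 37.2 and 37.7 cpm in sh1Control and 18.4, 21.0 and 23.0 in shD3 #1 (-0.92 ± 0.09, edgeR, adjusted p = 2.03e-07). With siD3 #3 the level was 7.97, 9.59 and 9.66 cpm against 42.7 and 42.4 (-2.23 ± 0.12). Its call in the deep libraries (-0.59 ± 0.07) was lost without deep sh1Control replicate 1 (-0.57) or deep shD3 #1 replicate 2 (-0.54). That call was also lost with DESeq2 size factors in edgeR (-0.580) and with total counts (-0.551). On the log2 scale *RFC3* stood at -0.79 with shD3 #1, at -0.58 with shD3 #4 and at -2.30 with the siRNA. In shD3 #4 it was called with DESeq2 (-0.601), total counts (-0.648), no filter beyond 1 count (-0.594) and replicate numbers as a block (-0.588). It was also called there without sh4Control replicate 2 (-0.591), sh4Control replicate 3 (-0.657) or shD3 #4 replicate 1 (-0.706). Deep shD3 #1 gave -0.39, not called.

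*RFC1*, the large subunit of the same complex, was not lower with shD3 #1. Its level was 71.1, 75.5 and 69.7 cpm in sh1Control and 81.7, 78.9 and 92.0 in shD3 #1 (0.22 ± 0.07), and 49.5, 51.0 and 48.99 in the deep controls and 55.2, 60.3 and 57.5 in deep shD3 #1 (0.21 ± 0.05). Every shD3 #1 library lay above its controls in both sets, under the fold threshold. *RPA2* of the same group also had a value above 0 in shD3 #1 (0.07 ± 0.08), with libraries that overlapped the controls. In siD3 #3 *RFC1* fell from 75.2 and 75.6 to 47.2, 49.6 and 50.9 cpm (-0.61 ± 0.08), a call lost without siD3 #3 replicate 1 (-0.57).

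*PCNA* (ENSG00000132646, chromosome 20 from 5114953 to 5126626), the sliding clamp, had the highest level per kilobase of the 53 genes in each control group (208 cpm per kilobase in sh1Control, 227 in sh4Control, 236 in siControl). Its level was 273, 264 and 261 cpm in sh1Control and 181, 179 and 228 in shD3 #1 (-0.44 ± 0.08), and 303, 293 and 274 in sh4Control and 236, 245 and 242 in shD3 #4 (-0.27 ± 0.06). Neither was called. In siD3 #3 it fell from 313 and 289 to 167, 164 and 145 cpm (-0.92 ± 0.10, edgeR, adjusted p = 4.22e-04). In the deep libraries the groups overlapped (-0.12 ± 0.05). *PCNA*, *DBF4* and *RRM2* are among the 12 genes of the set with annotated pseudogenes of their own name, which can share reads with them.

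Of the RPA subunits, which coat single-stranded DNA, *RPA3* was called in shD3 #1, siD3 #3 and deep shD3 #1 (-0.60, -1.28 and -1.08). *RPA1* and *RPA2* were called in siD3 #3 alone (-0.62 and -0.96). *RPA1*, noted after its values were seen, had 36.8 and 38.6 cpm in shD3 #1 replicates 1 and 2 but 16.3 in replicate 3, against 47.8, 47.4 and 41.5 in sh1Control. *TIMELESS* was likewise lower in that library. *RNASEH2A*, a subunit of the RNase H2 that removes RNA from DNA, had 0 to 13 counts per first library and failed the filter on low counts. Of its exonic bases in GENCODE 44, 53.3% lie in exons of *THSD8* on the same strand. Whether that overlap bears on the low counts of *RNASEH2A* was not tested. In the deep table, which lists another set of genes, *RNASEH2A* had 28.9, 27.5 and 29.4 cpm in controls and 19.7, 18.4 and 19.6 in shD3 #1 (-0.57 ± 0.06).

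Fork protection genes had the lowest median of any role group in shD3 #1 (-1.22) and deep shD3 #1 (-0.88), with -0.43 in shD3 #4 and -2.14 in siD3 #3. Called lower were 3, 1, 4 and 3 of the 4 in shD3 #1, shD3 #4, siD3 #3 and deep shD3 #1. The shares of all genes were 14.6%, 4.49%, 9.42% and 14.1%. *CLSPN* encodes claspin, which carries the replication checkpoint signal at the fork (ENSG00000092853, chromosome 1 from 35720218 to 35769978). It had 67.9, 64.2 and 60.2 cpm in sh1Control and 21.9, 22.6 and 23.5 in shD3 #1 (-1.50 ± 0.07, edgeR, adjusted p = 1.19e-10). It had 68.4, 62.0 and 61.0 in sh4Control and 46.3, 51.8 and 49.3 in shD3 #4 (-0.38 ± 0.07). siD3 #3 gave 3.40, 4.28 and 7.62 cpm against 62.4 and 54.9 (-3.52 ± 0.27). The deep libraries gave 59.0, 59.8 and 56.6 against 28.7, 29.6 and 30.02 cpm (-0.99 ± 0.05). The groups did not overlap in any of the 4.

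*WDHD1* (ENSG00000198554, chromosome 14 from 54938949 to 55027105), whose product links the helicase to polymerase alpha, showed the same order. It went from 77.3, 74.8 and 75.9 to 22.7, 27.2 and 31.0 cpm in shD3 #1 (-1.51 ± 0.09) and from 75.4, 76.0 and 70.5 to 52.1, 54.1 and 51.7 cpm in shD3 #4 (-0.49 ± 0.06). In siD3 #3 it went from 65.9 and 75.5 to 11.8, 12.2 and 16.0 cpm (-2.41 ± 0.15). Without replicate 3 the fall in shD3 #1 was -1.60.

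*TIMELESS* and *TIPIN* encode partners of 1 fork protection complex, and the shRNAs lowered them in opposite order. *TIMELESS* went from 80.8, 83.7 and 85.2 to 48.3, 47.4 and 32.5 cpm in shD3 #1 (-0.94 ± 0.11, and -0.80 without replicate 3), but from 65.7, 72.9 and 73.9 to 63.6, 66.9 and 65.6 in shD3 #4, which overlapped (-0.12 ± 0.07). *TIPIN* went from 21.5, 22.3 and 22.9 to 18.1, 18.3 and 18.02 cpm in shD3 #1 (-0.29 ± 0.08) and from 27.2, 24.9 and 22.04 to 14.7, 15.3 and 13.4 in shD3 #4 (-0.77 ± 0.09). In siD3 #3 both fell (-1.87 and -1.65), and in deep shD3 #1 the values were -0.77 and -0.33.

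**Figure D4:**
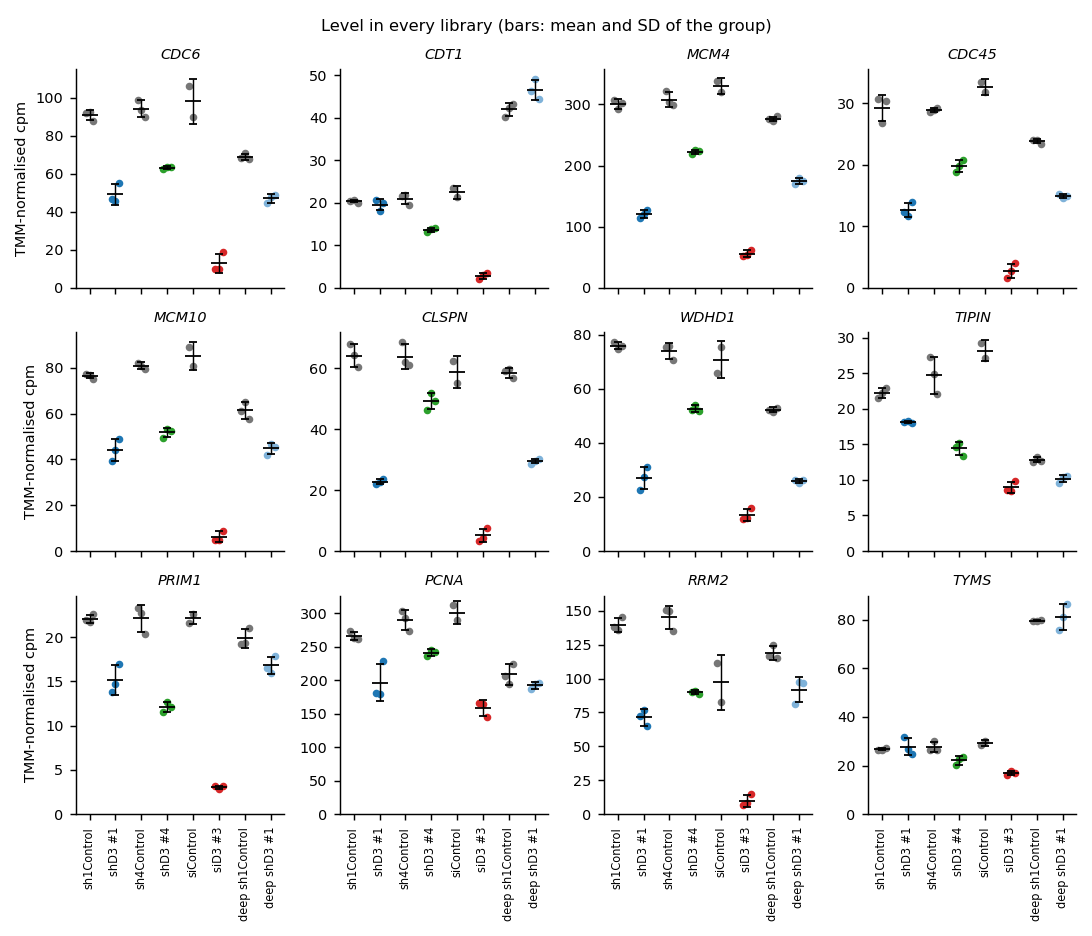
TMM-normalised cpm of 12 replication and nucleotide supply genes in every library of the 8 groups, with the mean and SD of each group (bars) and axes that start at 0. Points are libraries, grey for controls. *CLSPN*, *WDHD1* and *MCM4* are lower with shD3 #1 than with shD3 #4, and *CDT1*, *TIPIN* and *PRIM1* the reverse.

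The 4 nucleotide supply genes had median log2 fold changes of -0.64, -0.43, -2.55 and -0.24, and 2, 1, 4 and 0 were called lower. The shares of all genes called lower were 14.6%, 4.49%, 9.42% and 14.1%, and the 0 in the deep libraries does not exceed its share. *RRM2*, the S-phase subunit of ribonucleotide reductase (ENSG00000171848, chromosome 2 from 10120698 to 10211725), had 138, 135 and 145 cpm in sh1Control and 72.04, 77.1 and 64.9 in shD3 #1. It had 150.5, 149.6 and 135 in sh4Control and 90.4, 91.0 and 88.5 in shD3 #4, and 112 and 83.0 in siControl and 6.65, 7.94 and 14.8 in siD3 #3. All were called, at -0.96 ± 0.07, -0.69 ± 0.06 and -3.31 ± 0.30 (edgeR, adjusted p = 1.13e-08, 3.56e-09 and 1.73e-04). In deep shD3 #1 *RRM2* was not called (-0.37). The large subunit *RRM1* was called with shD3 #1 (-0.88 ± 0.08) and with the siRNA (-1.79 ± 0.09), whereas shD3 #4 left it under the threshold (-0.35 ± 0.06). It was not called in deep shD3 #1 (-0.50).

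*TK1*, which salvages thymidine, missed the fold threshold with both shRNAs and fell with the siRNA. Its level was 62.5, 64.9 and 69.0 cpm in sh1Control against 45.6, 49.3 and 54.2 in shD3 #1 (-0.40 ± 0.07), and 77.6, 74.7 and 70.4 in sh4Control against 52.5, 50.6 and 54.4 in shD3 #4 (-0.50 ± 0.07). In siD3 #3 it was 5.05, 5.54 and 10.9 cpm against 72.9 and 77.5 (-3.39 ± 0.28). The deep libraries gave *TK1* a log2 fold change of -0.11, not called. *TYMS*, which makes thymidylate, fell least. It had 26.5, 26.3 and 27.2 cpm in sh1Control and 31.7, 26.6 and 24.8 in shD3 #1, which overlapped (0.06 ± 0.08). It had 26.3, 30.1 and 26.4 cpm in sh4Control and 20.1, 22.7 and 23.7 in shD3 #4 (-0.32 ± 0.08). The siD3 #3 libraries had 16.2, 17.9 and 16.8 cpm against 28.5 and 30.2 (-0.79 ± 0.10). Of its exonic bases, 47.9% lie opposite exons of *ENOSF1* or *TYMSOS*, and its level was 79.3 to 79.8 cpm in the deep controls, whose table lists another set of genes.

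The difference between the shRNAs was tested in 1 edgeR model of the 17 first libraries, at an adjusted p under 0.05 with no fold threshold. It was called for 24 of 53 replication genes, where 39.4% of all genes were called. Of these, 17 had a difference below 0, that is a lower log2 fold change in shD3 #1 (19.8% of all genes), and 7 above 0. The 24 are thus near the share of all genes. The largest were *CLSPN* (-1.13 ± 0.18, adjusted p = 5.01e-05), *WDHD1* (-1.02 ± 0.14), *MCM4* (-0.85 ± 0.10), *TIMELESS* (-0.83 ± 0.17), *CDC45* (-0.68 ± 0.18) and *POLA1* (-0.63 ± 0.10). On the other side were *CDT1* (0.56 ± 0.14), *MCM5* (0.56 ± 0.15), *TIPIN* (0.48 ± 0.13), *TYMS* (0.38 ± 0.13), *RPA2* (0.37 ± 0.13), *RFC1* (0.33 ± 0.10) and *PRIM1* (0.32 ± 0.12). The call for *PRIM1*, at an adjusted p of 0.0497, was lost with DESeq2 (0.0780) and in 13 of 17 fits that left out 1 library (range of the difference 0.24 to 0.38). In edgeR it was also lost with no filter beyond 1 count (adjusted p = 0.211), with at least 10 counts in every sample (0.0547) and with replicate numbers as a block (0.0651). That for *POLE2* (-0.54) was lost with DESeq2 (adjusted p = 0.0659), with its size factors (0.0549), with total counts (0.169) and in 10 of 17 such fits (-0.73 to -0.38). That for *RFC4* (-0.37) was lost with DESeq2 (0.0627), with total counts (0.217) and without sh1Control replicate 1 (-0.31), shD3 #1 replicate 1 (-0.29), sh4Control replicate 3 (-0.32) or shD3 #4 replicates 2 (-0.32) or 3 (-0.36). With total counts the call for *CDC7* was lost as well (adjusted p = 0.126). The alternatives were not run for *POLA1*, *MCM5* and *RPA2*. That for *TYMS* was lost without shD3 #1 replicate 1 (0.27), sh4Control replicate 2 (0.31) or shD3 #4 replicate 1 (0.31). *THUMPD3* itself stood at 31.4% of control in shD3 #4 and 51.3% in shD3 #1, a difference of 0.70 ± 0.10 on the log2 scale.

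**Figure D5:**
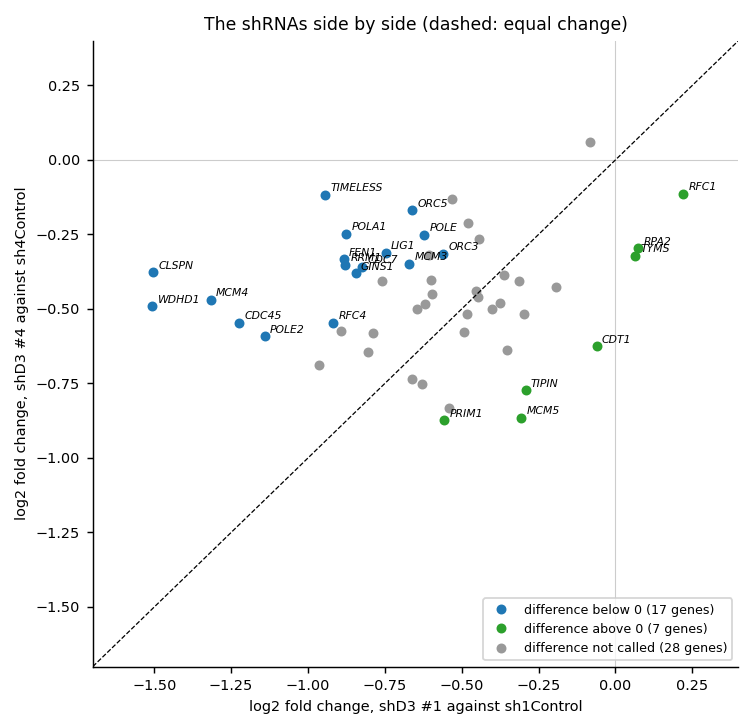
Log2 fold change of 52 replication and nucleotide supply genes in shD3 #1 (x axis) and shD3 #4 (y axis), each against its own controls. The dashed line marks equal change. The 17 genes with a called difference below 0 lie to the left of the line and the 7 with one above 0 to the right, and grey points are the 28 plotted genes without a called difference.

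The effect of siD3 #3 minus the mean effect of both shRNAs was called for 46 of 53 genes, all below 0, where 29.1% of all genes were called and 14.6% were below 0. The median difference over the 53 was -1.48 on the log2 scale. It was largest for *MCM10* (-3.03 ± 0.17), *GINS2* (-2.94 ± 0.19), *TK1* (-2.93 ± 0.20), *CDC45* (-2.67 ± 0.20), *CDT1* (-2.61 ± 0.15) and *ORC1* (-2.60 ± 0.17). It was smallest among called genes for *PCNA* (-0.56 ± 0.11), *POLD2* (-0.59 ± 0.10) and *TYMS* (-0.65 ± 0.12). The 7 genes without a called difference were *ORC3*, *ORC4*, *ORC5*, *POLE3*, *LIG1*, *RPA1* and *RNASEH2A*. For *ORC3* the difference was -0.13 ± 0.09, for *ORC5* -0.08 ± 0.09 and for *ORC4* 0.29 ± 0.12.

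The remaining replication genes, a list of 29 that holds accessory initiation factors, histone chaperones and alternative clamp loaders, also had medians below 0. Medians (log2 fold change) were -0.63 with shD3 #1, -0.36 with shD3 #4, -1.65 with siD3 #3 and -0.37 in the deep libraries. Of 28 tested in each, 15, 1, 23 and 8 were called lower, where 14.6%, 4.49%, 9.42% and 14.1% of all genes were, and 1, 0, 0 and 0 higher. The 1 of 28 in shD3 #4 is no more than the share of all genes. *ASF1B*, a histone chaperone of dividing cells, went from 19.4, 19.02 and 20.01 to 7.90, 7.66 and 7.94 cpm in shD3 #1 (-1.32 ± 0.09) and from 23.7 and 25.4 to 1.70, 2.17 and 2.69 cpm in siD3 #3 (-3.49 ± 0.19). *TICRR*, an initiation factor, had log2 fold changes of -1.14, -0.33, -3.36 and -0.69. The paralogue *ASF1A* went the other way in shD3 #1, from 14.7, 14.3 and 13.0 to 21.6, 22.2 and 22.8 cpm (0.66 ± 0.08), and its groups overlapped in shD3 #4 and siD3 #3. *POLD4* was called in none (0.18, 0.28, 0.13 and 0.08). *CHTF8* was not tested in the first libraries.

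Of 15 other nucleotide metabolism genes, 3, 2, 6 and 4 were called lower and 3, 0, 1 and 2 higher, with medians of -0.24, -0.10, -0.46 and -0.31. Of all genes, 14.6%, 4.49%, 9.42% and 14.1% were called lower and 14.5%, 8.0%, 12.5% and 15% higher. The 3 lower and 3 higher in shD3 #1 are near these shares. The 0, 1 and 2 called higher in shD3 #4, siD3 #3 and deep shD3 #1 are no more than the share of all genes. *DTYMK*, thymidylate kinase, had log2 fold changes of -0.58, -0.59, -2.03 and -0.71, and its call in shD3 #4 was lost without sh4Control replicate 1 (-0.53) or shD3 #4 replicate 2 (-0.57). *RRM2B*, the p53-inducible ribonucleotide reductase subunit, was called higher in shD3 #1, siD3 #3 and deep shD3 #1. It went from 49.7, 48.5 and 49.9 to 92.7, 91.5 and 109 cpm in shD3 #1 (0.98 ± 0.07) and from 51.1 and 58.6 to 181, 165 and 148 cpm in siD3 #3 (1.59 ± 0.12). The deep libraries gave 27.8, 26.2 and 29.6 against 51.7, 52.5 and 55.6 cpm (0.94 ± 0.06). In shD3 #4 its groups overlapped (-0.08 ± 0.08). *NME1*, a nucleoside diphosphate kinase, was called in opposite directions in the first and the deep shD3 #1 libraries (1.01 ± 0.18 and -1.44 ± 0.23), and had -0.10 in shD3 #4 and 0.06 in siD3 #3.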

How the data were processed

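RNA of A549 cells, depleted of ribosomal RNA and treated with DNase, was made into directional libraries. The authors trimmed reads with Trimmomatic 0.40, aligned them to GRCh38.p14 with STAR 2.7.10a and counted reads per gene with its GeneCounts option. The deposited values are raw read counts, in a first table of 17 libraries and a deep one of 6. The first table carries Ensembl identifiers, although the methods name the RefSeq annotation, and the deep one carries symbols. The STAR strand column is not given in the sources used here. Positions and overlaps came from GENCODE 44, in which 61757 genes of the first table and 27502 of the deep one were found. Together the 2 tables hold all 23 libraries of the labels. The labels list 2 libraries of siControl, fewer than the methods name per condition, and both are analysed here.

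The members and the lists were chosen with earlier results of these data known. Each knockdown was fitted against its own controls with edgeR 4.0.16 (R 4.3.3), using filterByExpr, TMM and the quasi-likelihood test, with Benjamini-Hochberg adjustment over all genes tested. Differences between knockdowns came from 1 model of 6 group means over the 17 first libraries, with 18672 genes tested. The standard error was the log2 fold change divided by the square root of F. The code was tested on simulated data. Depth was 9854294 to 22101059 counts in the first libraries, of which *MT-RNR2* took 21.9% to 32.2%, and 27285889 to 59974740 in the deep ones, so genes with few counts were measured less exactly in the first. No pair of libraries agreed within sampling noise. The methods call the libraries of a group biological replicates.

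Genes were given by name where they had the 2 lowest or the highest mean log2 fold change of their role group over the first 3 knockdowns, failed the filter or were called higher. The pairs *CDT1* and *GMNN*, *RRM1* and *RRM2*, *CDC7* and *DBF4*, and *TIMELESS* and *TIPIN* were added, with *PCNA*, *RRM2B* and the 2 lowest and 2 highest genes of each of the other lists. Of the genes this rule gives and the markers, 3 are not reported here. Others were named after their values were seen. Alternatives were DESeq2 1.42.0, its size factors in edgeR, total counts, other filters and thresholds, 1 fit of all 17 libraries, the replicate number as a block, and leaving out each library.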

Additional observations from a re-analysis of the deposited data

Results flagged for a closer look

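For the genes named by rule, the log2 fold changes of 2 knockdowns differed at an adjusted p under 0.05 (edgeR) as follows. With shD3 #1 minus shD3 #4, the difference was below 0 for *RFC4* (-0.37), *CDC45* (-0.68), *CLSPN* (-1.13), *WDHD1* (-1.02), *MCM4* (-0.85), *POLE2* (-0.54), *RRM1* (-0.53), *CDC7* (-0.47) and *TIMELESS* (-0.83). Outside the 53 genes it was below 0 for *ASF1B* (-0.78) and *TICRR* (-0.82). It was above 0 for *RFC1* (0.33), *TIPIN* (0.48), *TYMS* (0.38), *PRIM1* (0.32) and *CDT1* (0.56), and for *NME1* (1.11), *RRM2B* (1.06) and *ASF1A* (0.64) outside the 53. The calls for *RFC4*, *POLE2*, *PRIM1* and *TICRR* were lost with DESeq2 (adjusted p = 0.0627, 0.0659, 0.0780 and 0.0862), and those for *RFC4*, *POLE2* and *CDC7* with total counts (0.217, 0.169 and 0.126). That for *PRIM1* was also lost with both other filters on counts and with replicate numbers as a block.

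With siD3 #3 minus the mean of the shRNAs, the licensing genes *CDC6* (-2.18), *MCM4* (-1.65), *ORC2* (-0.67), *CDT1* (-2.61) and *GMNN* (-1.13) were below 0. So were *CDC45* (-2.67), *MCM10* (-3.03), *GINS3* (-1.14), *CDC7* (-1.20) and *DBF4* (-1.48) among firing genes. Polymerase genes gave *POLE2* (-2.17), *PRIM1* (-2.13) and *POLD2* (-0.59), and clamp genes *RFC4* (-1.49), *RFC3* (-1.60), *RFC1* (-0.65) and *PCNA* (-0.56). Fork protection genes gave *CLSPN* (-2.57), *WDHD1* (-1.39), *TIPIN* (-1.11) and *TIMELESS* (-1.33), and nucleotide supply genes *RRM2* (-2.47), *TK1* (-2.93), *TYMS* (-0.65) and *RRM1* (-1.16). Outside the 53, *DTYMK* (-1.43), *ASF1B* (-2.55) and *TICRR* (-2.61) were below 0 and *RRM2B* was above it (1.15). Harvest time, delivery, the depth of *THUMPD3* depletion and the sequence of the single siRNA cannot be told apart in these differences. The log2 fold change of *THUMPD3* was -2.54 in siD3 #3, -0.97 in shD3 #1 and -1.67 in shD3 #4.

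*NME1* moved in opposite directions in the 2 sets of shD3 #1 libraries. In the first set it had 29.5, 19.5 and 28.0 cpm in controls and 46.1, 39.8 and 73.2 with shD3 #1 (log2 fold change 1.01), and in the deep set 21.2, 22.8 and 20.3 against 4.56, 5.71 and 12.9 (-1.44). This difference was not tested, and the 2 tables list different sets of genes.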

How the results depend on the processing

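The counts moved most with the fold threshold. The replication genes called lower in shD3 #1 (28) became 18 with glmTreat, which tests against the fold threshold itself, and 5 at a log2 fold change of at least 1. The 11 in shD3 #4 became 18 with total library size, 4 with glmTreat and 0 at a fold change of at least 1. The 11 in deep shD3 #1 became 5 and 2, and the 24 that differed between the shRNAs became 6 when a difference of 1.5-fold was also asked for. DESeq2 gave 27, 14, 50 and 11 genes lower in shD3 #1, shD3 #4, siD3 #3 and deep shD3 #1. Total library size gave 21, 18, 51 and 10, and 42.3%, 47.9%, 54.3% and 44.4% of all calls were then lower, against 50.1%, 36.0%, 42.9% and 48.5% with TMM.

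Leaving out 1 library gave 24 to 28, 10 to 16, 47 to 50 and 10 to 13 genes lower in the same order, and 19 to 28 and 46 to 48 differences for the shRNAs and for siD3 #3 against their mean. *THUMPD3* ranged from -0.999 to -0.943, -1.73 to -1.65, -2.60 to -2.49 and -1.05 to -0.96.

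Replicate numbers did not pair the samples (correlations of -0.19 to 0.21). With them as a block, the counts were 29, 12, 49 and 11, and 22 and 46 differences.

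Small values changed sign. With total library size these were *CDT1* in shD3 #1 (0.0076), *ORC2* and *ASF1A* in shD3 #4 (-0.0092 and -0.049), *NME1* in siD3 #3 (-0.042), and the shRNA differences of *POLD4* (0.049) and *DBF4* (0.12). *ORC2* in the deep libraries was -0.011 with no filter. The shRNA difference of *DBF4* was 0.011 with DESeq2 and 0.0074 with its size factors, and with at least 10 counts in every sample that of *DTYMK* was -0.0072 and that of *GMNN* -0.0033. Leaving out 1 library gave ranges across 0 for *CDT1* (-0.11 to 0.0059) and *TYMS* (-0.044 to 0.12) in shD3 #1, *ASF1A* in shD3 #4 (-0.051 to 0.067), *NME1* (-0.034 to 0.13) and *POLD4* (-0.0025 to 0.24) in siD3 #3, and *ORC2* (-0.028 to 0.048) and *TYMS* (-0.024 to 0.074) in the deep libraries. It did so for the shRNA differences of *DBF4* (-0.077 to 0.081), *DTYMK* (-0.055 to 0.088), *GMNN* (-0.048 to 0.093), *POLD4* (-0.24 to 0.027) and *RNASEH2A* (-0.57 to 0.17), and for *POLD4* in siD3 #3 against the shRNAs (-0.24 to 0.011).

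The cause of these changes was not tested. Over all other settings than leaving out a library, 776 of 798 values in the comparisons and 386 of 406 in the differences kept their direction and side of the threshold.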
